A study of Arabidopsis thaliana with 2 samples.

Results

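The genes described here encode the enzymes that edit and cut pectin in the Arabidopsis thaliana cell wall, together with the proteins that inhibit them. They are the 129 nuclear loci, of 21682 in the deposited table, whose best protein match in the table's annotation names a pectinesterase, pectin methylesterase, pectate lyase or polygalacturonase. Transcripts were measured by RNA-seq in 2 libraries of whole seedlings in the Columbia (Col) background. The first came from wild type and held 7059226 counts. The second came from a line labelled 35SARF18OE-2, which overexpresses ARF18, an auxin response factor, and held 6824188 counts. The label 35S names a viral promoter that is active in most plant tissues, and the overexpression library stands for 1 line. Both libraries share the growth regime, which the labels give as an age of 7 days and elsewhere as 4 dark days and then 7 days under white light.

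Pectin is made with its galacturonic acid chains largely methyl-esterified. Pectinesterases (pectin methylesterases) remove the methyl groups, after which the chains can be cross-linked by calcium or become substrates for polygalacturonases, which hydrolyse them, and pectate lyases, which break them by elimination. Pectinesterase inhibitors bind and block the plant's own pectinesterases, and many pectinesterases are made with a pro-region that resembles such an inhibitor. In seedlings these proteins are known for their part in wall loosening, cell expansion and cell separation.

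The text of the protein matches did not single out enzymes. By the match text together with the reference product names, 43 loci were pectinesterases, 34 pectinesterase inhibitors, 19 pectate lyases and 24 polygalacturonases. A further 3 encoded non-catalytic BURP-domain subunits of polygalacturonase, and 3 were matched to polygalacturonase-inhibiting proteins. Of these, FLR1 rests on the match text, as its reference product name is a leucine-rich repeat family protein. The remaining 3 loci did not bear out the description: AT1G55000 is annotated as a LysM-domain protein, AT1G23470 as a pseudogene, and AT5G06865 as a noncoding RNA antisense to PGIP1. Inhibitor domains of this type are shared with invertase inhibitors, so the substrate of most inhibitor loci is not given by their annotation.

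Of the 129 loci, 112 had counts in both libraries, and the 17 found in 1 library had at most 3 counts. A mean RPKM (reads per kilobase of transcript, scaled to the counted reads of the library) of 1 or more was reached by 87 loci, called expressed below. ARF18 itself had 97 wild-type and 472 overexpression counts, a count ratio of 5.03 (95% interval 4.04 to 6.33). With 1 library per genotype there is no spread between replicates and no test between genotypes, and every interval given covers counting error only. In whole seedlings, fewer cells of a type and less RNA per cell cannot be told apart. Markers of the organs, listed after the files were seen, were all detected in both libraries. Of 7 root markers 5 were higher in the overexpression library, and their summed RPKM without the most abundant one, BGLU23, was 171 in wild type and 269 in overexpression (10418 and 8792 with it). The 4 shoot markers summed to 1781 and 1745, with 1 higher. The part of organ proportions in the differences below was not tested.

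Summed over each class, transcripts of pectinesterases were lower and those of their inhibitors higher in the overexpression library. Pectinesterases summed to 1765 RPKM in wild type and 1513 in overexpression, a ratio of 0.857. Inhibitors summed to 1759 and 2113 RPKM, a ratio of 1.20. The quotient of inhibitor over pectinesterase was 0.997 for wild type and 1.40 for overexpression. Without the most abundant member of each class, AT5G62350 and PME3, it was 0.656 and 0.881, so the near equality in wild type and the excess in overexpression rest on these members. Polygalacturonases summed to 302 and 261 RPKM (ratio 0.866), and pectate lyases to 790 and 828 (ratio 1.05). The same sum over all nuclear loci had a ratio of 1.07. Across all expressed loci the ratio went with transcript length, shorter transcripts having higher ratios, and inhibitor transcripts are short. The median of loci of like length and GC content was then subtracted from each locus. With this adjustment the sum ratios were 0.926 for pectinesterases, 1.04 for inhibitors, 0.865 for polygalacturonases and 1.06 for pectate lyases. The quotient of inhibitor over pectinesterase in overexpression became 1.12.

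**Figure D1:**
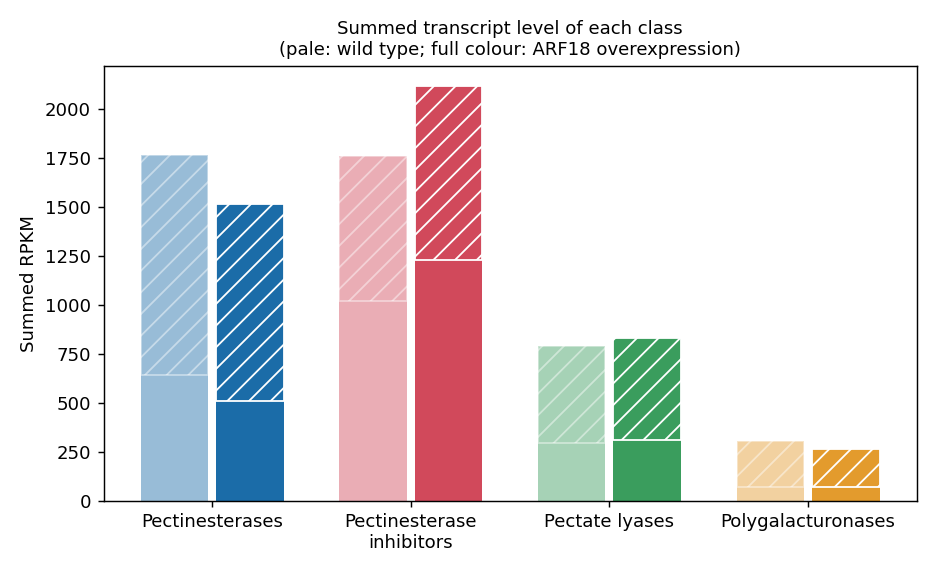
Summed RPKM of the 4 main classes in the wild-type library (pale bars) and the ARF18 overexpression library (full colour), 1 library each and so without error bars. Pectinesterases and inhibitors stand at 1765 and 1759 in wild type and at 1513 and 2113 in overexpression.

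Few single loci stood far apart between the libraries. On the log2(RPKM + 1) scale, 3 of the 87 expressed loci were at least 2-fold higher in the overexpression library and 0 were at least 2-fold lower, where 1.25% and 0.663% of the 15083 expressed nuclear loci were. At 1.5-fold, 12 members (13.8%) were higher and 3 (3.45%) lower, beside 6.24% and 4.71% of all expressed loci. Once adjusted for length and GC, 7 members (8.05%) were 1.5-fold higher and 1 (1.15%) lower, beside 3.07% and 4.69%, and 0 were 2-fold apart. The interval of the count ratio lay above 1 for 23 members and below 1 for 18, shares of 26.4% and 20.7%, beside 18.7% and 15.6% of all expressed loci. The median log2 ratio of the 87 was 0.04, beside 0.03 for all expressed loci. Log2 ratios were positive for 51 and negative for 36 of the 87, and for 8119 and 6964 of all expressed loci. After adjustment these counts were 47 and 40 for members, and 7523 and 7527 for all expressed loci.

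**Figure D2:**
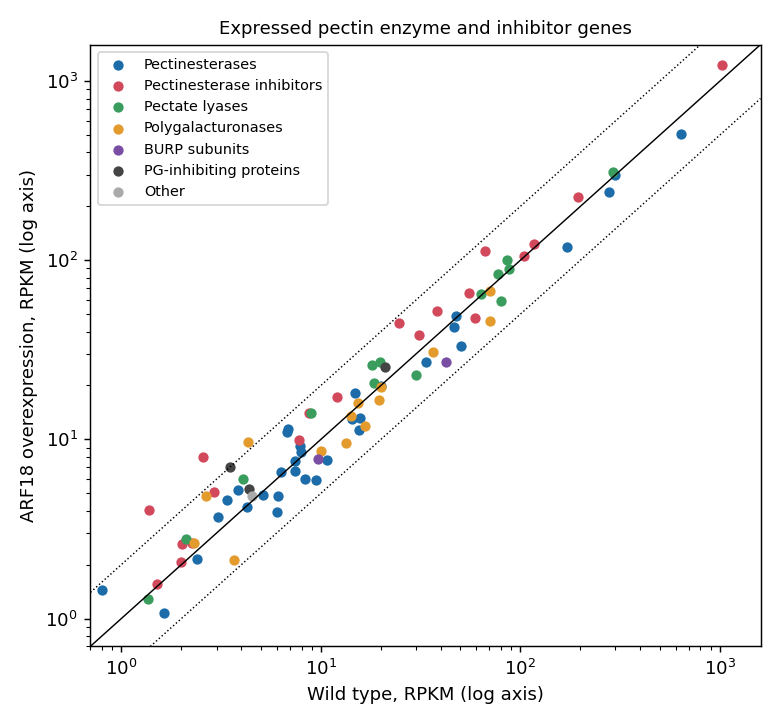
RPKM of each expressed member in wild type (x axis, log scale) and in ARF18 overexpression (y axis, log scale), coloured by class, 1 library each. Most points lie near equality, and the inhibitor AT5G62350 is the most abundant member in both libraries at 1020 and 1225 RPKM.

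Among the pectinesterases, 33 of 43 were expressed, and 6 of the 8 most abundant were lower in the overexpression library. Their median log2 ratio was -0.11, with 13 above and 20 below 0, and -0.02 after adjustment, with 16 above and 17 below. The interval, which is not adjusted for length, lay below 1 for 10 of the 33 and above 1 for 2. Among all expressed loci the shares were 15.6% and 18.7%. PME3 (AT3G14310), a broadly expressed pectinesterase, gave 34.9% of the class's RPKM. It had 639 RPKM in wild type and 506 in overexpression, from 9540 and 7306 counts, and a count ratio of 0.792 (0.768 to 0.817). Its log2 ratio was -0.34, and -0.15 after adjustment. PMEPCRF (AT5G53370) had 171 and 118 RPKM, a log2 ratio of -0.53. The pectinesterase AT3G49220 had 50.2 and 33.3 RPKM, a log2 ratio of -0.58. ATPMEPCRD (AT2G43050) was lower as well, at 280 and 242 RPKM. By contrast, PMEPCRA (AT1G11580), the second most abundant of the class, was at 298 and 301 RPKM, and PME44 at 47.4 and 49.2, so the lower sum was not shared by every abundant member. The sum without PME3 had a ratio of 0.894.

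Higher values in this class were found at lower levels of expression. PME2 (AT1G53830) had 94 counts in wild type and 151 in overexpression, a log2 ratio of 0.66 (0.78 adjusted) and a count ratio of 1.66 (1.28 to 2.17). AT5G04960, another pectinesterase with a pro-region, had 92 and 146 counts and a log2 ratio of 0.64 (0.74 adjusted). These were the 2 pectinesterases at least 1.5-fold apart. Lowest of the class was AT5G64640, with 136 and 83 counts and a log2 ratio of -0.58, just inside the 1.5-fold limit. The 28 expressed members with a pro-region had a median of -0.13, and the 5 without one 0.21, although their transcripts are shorter and the adjusted medians were -0.02 and 0.09. Among members with described roles, QRT1, needed for pollen grains to separate, had 22 and 19 counts. PME5, which acts at the shoot apex where organs form, had 34 and 45. AT2G45220, known as PME17 and induced by infection, had 196 and 137 counts, with a count ratio of 0.723 (0.577 to 0.904).

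The pectinesterase inhibitors lay on the other side. Of 34 loci 20 were expressed, and 19 of these had a positive log2 ratio, beside 8119 of all 15083 expressed loci. The median of the 20 was 0.28. The interval, which is not adjusted for length, lay above 1 for 11 and below 1 for 1. Among all expressed loci it lay above 1 for 18.7% and below 1 for 15.6%. After adjustment the median was 0.08, with 13 positive and 7 negative, so the uniform direction was not kept once loci of like length and GC content were used as the reference. AT5G62350 supplied 58.0% of the class's RPKM, at 1020 in wild type and 1225 in overexpression (6749 and 7835 counts). Its log2 ratio of 0.26 became 0.08 with adjustment. AT1G14890, the next in level, had 195 and 225 RPKM, with ratios of 0.20 and 0.01. AT4G12390 was the 1 expressed inhibitor that was lower, with 358 and 280 counts and a log2 ratio of -0.30 (-0.52 adjusted).

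A trio of neighbouring inhibitor genes on chromosome 5, each a single exon on the plus strand, held the most abundant member of the class and a pair of loci at least 1.5-fold higher in the overexpression library. AT5G62340 (chr5:25033471-25034404, TAIR10.1) had 415 and 684 counts, a log2 ratio of 0.76 (0.50 adjusted) and a count ratio of 1.7 (1.51 to 1.93). AT5G62350 (chr5:25037191-25038424) lies between the other members, and AT5G62360 (chr5:25040540-25041504) had 141 and 247 counts, a log2 ratio of 0.83 (0.56 adjusted) and a count ratio of 1.81 (1.47 to 2.24). The outer members were thus further apart between the libraries than the middle one, at levels far below it. Neither stayed 1.5-fold higher after adjustment. A part of the AT5G62340 transcript, 408 bases, is 86.8% identical to AT5G62330, which had 20 and 27 counts.

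The highest log2 ratios of the class, both above 2-fold, came from low counts. AT3G17130 (chr3:5844277-5845220, minus strand) had 10 counts in wild type and 30 in overexpression, 2.57 and 7.96 RPKM, a log2 ratio of 1.33 and a count ratio of 3.10 (1.48 to 7.12). AT5G51520 had 6 and 17 counts, 1.38 and 4.05 RPKM, a log2 ratio of 1.08 and a count ratio of 2.93 (1.1 to 9.08). With adjustment these were 0.98 and 0.77. AT1G23205 (55 and 86 counts) and AT3G47380 (16 and 27 counts) were the other inhibitors at least 1.5-fold higher, both at a log2 ratio of 0.64. AT2G47670, known as PMEI6, which acts in seed coat mucilage, had 45 and 55 counts.

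**Figure D3:**
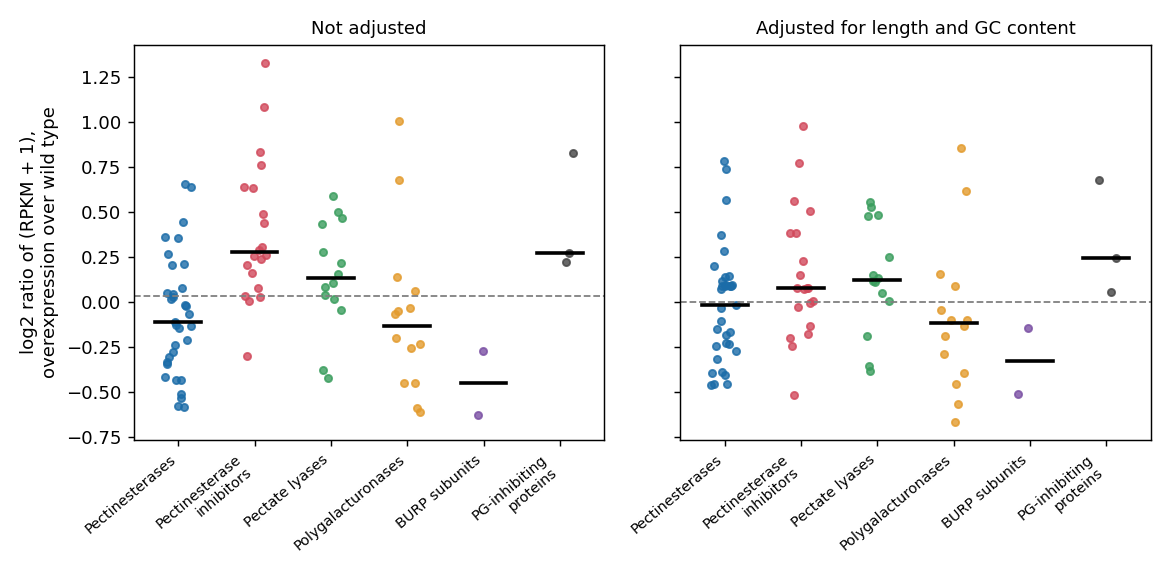
Log2 ratio of (RPKM + 1), overexpression over wild type, of each expressed member by class, without and with adjustment for transcript length and GC content. The inhibitors sit at a median of 0.28 before adjustment and 0.08 after it, while pectate lyases stay at 0.13 and 0.12 and polygalacturonases at -0.13 and -0.12.

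Within the 4 main classes the relation of ratio to length was looser than over all loci. Each class also spans a narrower range of lengths, as the inhibitors do with 552 to 1096 bases, beside 75 to 15465 for all expressed loci. Across all expressed loci Spearman's rho of length with log2 ratio was -0.52, while it was -0.23 for 33 pectinesterases, -0.44 for 20 inhibitors, -0.18 for 14 pectate lyases and -0.41 for 14 polygalacturonases, given as descriptions of points that share both libraries. With adjusted ratios, rho was -0.37 for inhibitors, -0.22 for polygalacturonases, -0.05 for pectinesterases and 0.002 for pectate lyases. It was -0.002 for all expressed loci, so the adjustment left a trend with length among the inhibitors. The median transcript length was 1905 bases for pectinesterases, 853.5 for inhibitors and 1415 for all expressed loci. Loci in the shortest of 10 equal groups, up to 676 bases, had a median log2 ratio of 0.34, and those in the longest, from 2611 bases, -0.31.

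Pectate lyases, of which 14 of 19 were expressed, had 11 positive and 3 negative log2 ratios, both without and with adjustment, and medians of 0.13 and 0.12. The interval of the count ratio lay above 1 for 6, below 1 for 2 and included 1 for 6. For all expressed loci, 18.7% lay above 1 and 15.6% below. The sum ratio of 1.05 was below the 1.07 of all nuclear loci. The most abundant, AT1G04680, held 37.2% of the class's RPKM and had 292 and 310, a log2 ratio of 0.09. AT5G63180 was the 1 member at least 1.5-fold apart, with 92 and 139 counts and a log2 ratio of 0.59 (0.55 adjusted). AT3G24670 (202 and 281 counts) and AT3G07010 (234 and 310 counts) followed at 0.50 and 0.44. PMR6 (AT3G54920), whose loss gives powdery mildew resistance, went the other way. It had 1039 and 746 counts, 80.0 and 59.4 RPKM, a log2 ratio of -0.42 (-0.36 adjusted) and a count ratio of 0.743 (0.675 to 0.817). AT3G09540 was also lower, with 318 and 234 counts.

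Polygalacturonases had 10 negative and 4 positive log2 ratios among 14 expressed of 24, and 10 and 4 after adjustment. The interval of the count ratio lay below 1 for 4, above 1 for 2 and included 1 for 8. The shares of all expressed loci were 15.6% below 1 and 18.7% above. AT3G16850 had 70.3 RPKM in wild type and 45.6 in overexpression, from 896 and 562 counts, with a log2 ratio of -0.61 (-0.57 adjusted) and a count ratio of 0.649 (0.583 to 0.722). AT4G23500, at 24.5% of the class's RPKM, was nearly equal at 70.1 and 67.8. AT2G43880 was the exception in size and direction. It had 36 and 78 counts, 4.30 and 9.65 RPKM, a log2 ratio of 1.01 (0.86 adjusted, 0.98 with libraries scaled by the trimmed mean of M values, both under 2-fold) and a count ratio of 2.24 (1.49 to 3.43). AT3G59850 was also higher, with 26 and 46 counts and a log2 ratio of 0.68. QRT2, which acts with QRT1 in the separation of pollen grains, had 36 and 20 counts and a log2 ratio of -0.59 (-0.67 adjusted), with an interval of 0.315 to 1.02 that includes 1. ADPG1, a polygalacturonase of dehiscing and abscising organs, had 0 and 3 counts, and ADPG2 (PGAZAT in the reference) 2 and 3, too few to compare.

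Among the BURP-domain subunits, which have no catalytic site, PG1 (AT1G60390) had 626 and 387 counts, 42.4 and 27.1 RPKM, a log2 ratio of -0.63 (-0.51 adjusted) and a count ratio of 0.640 (0.562 to 0.727). JP630 (AT1G23760) was lower too, with 144 and 113 counts and an interval of 0.629 to 1.05. PG2 (AT1G70370) did not reach the level limit, with 15 and 4 counts. By count ratio it was more than 2-fold lower, at 0.276 (0.0666 to 0.866). All 3 loci matched to polygalacturonase-inhibiting proteins had positive ratios. Such inhibitors are leucine-rich repeat proteins best known for blocking fungal enzymes. PGIP1 had 29 and 56 counts, a log2 ratio of 0.83 (0.68 adjusted) and a count ratio of 2.00 (1.25 to 3.24). Its neighbour PGIP2 had 36 and 42 counts, and FLR1 207 and 244. FLR1 held 69.6% of the class's RPKM, but its place in the class rests on the match text. Its synonyms include FLORAL TRANSITION AT THE MERISTEM4. The antisense RNA AT5G06865, which covers PGIP1, had 0 and 1 counts.

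**Figure D4:**
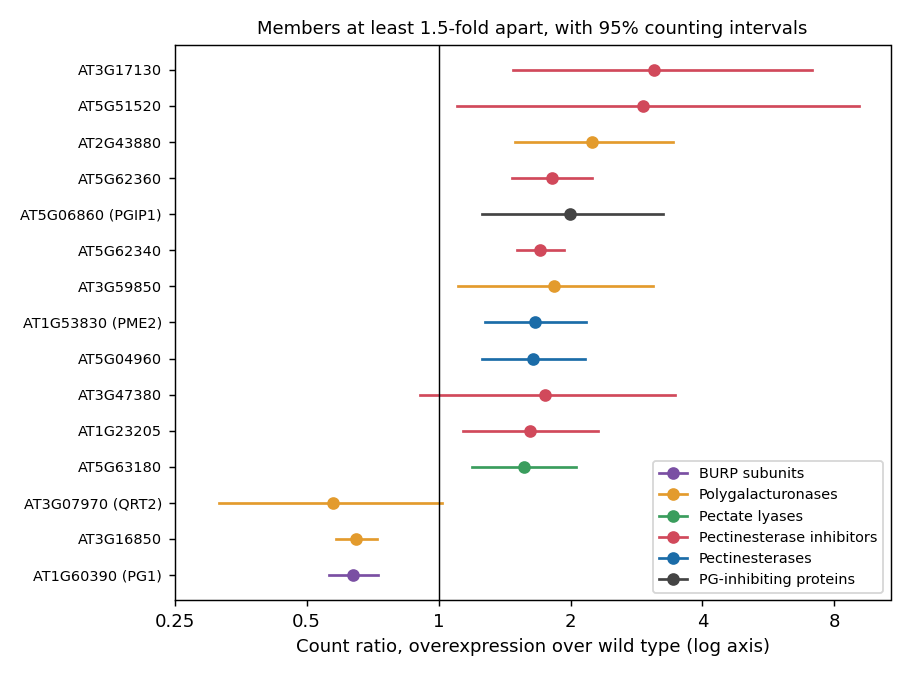
Count ratio, overexpression over wild type (log axis), of the members at least 1.5-fold apart, with 95% exact counting intervals and coloured by class. The interval of AT3G17130 runs from 1.48 to 7.12 and that of AT5G62340 from 1.51 to 1.93, so the widest intervals belong to the lowest counts.

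Many members stand beside one another in the genome. With starts within 20000 bases, 44 of the 129 formed 20 clusters of at most 3 loci, and neighbours did not always go together. PME2 and PME1 (AT1G53840) are adjacent pectinesterases on chromosome 1, and PME2 was higher while PME1, with 488 and 379 counts, had a log2 ratio of -0.31. AT5G04960 and its neighbour AT5G04970 lay at 0.64 and -0.28. RHS12, named for its root-hair-specific expression, and AT3G10720 lay at 0.35 and -0.51. The count ratio intervals of AT5G04970 (0.570 to 1.11) and RHS12 (0.904 to 2.03) include 1. Other expressed neighbours shared a direction, as AT4G25250 and AT4G25260 did at 0.49 and 0.29. Overlap can blur such values. By comparison of the longest transcripts, 13 members share 100 bases or more with an overlapping gene, among them PMEPCRF, PMR6, PGIP1 and AT4G12390. That comparison can miss overlaps: the gene spans of PME44 and AT4G33230 (1 and 0 counts) also overlap on chromosome 4. Whether the libraries kept strand is unstated in the labels and headers. The transcripts of 14 members are at least 85% identical over 100 bases or more to that of a gene that does not overlap them. This leaves their counts uncertain, as for RHS14, 93.4% identical to AT4G22090 over 1185 bases. Shorter stretches are alike for the abundant PMEPCRA (96.5% over 285 bases) and AT5G62350 (89.1% over 147 bases).

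The 250 bases before the annotated start are shown for the trio and for the members at least 2-fold apart, with PME3 beside them. All of these loci but PME3 were higher in the overexpression library, and windows of other lower loci are not shown. The windows shown were read from the TAIR10.1 RefSeq genome, 5′ to 3′ along the gene's strand, and none overlaps another gene. Capitals mark TGTC, or GACA where it lies on the other strand, the core letters of the auxin response element that ARF proteins bind. The windows are chr5:25033221-25033470 (plus strand) for AT5G62340, chr5:25036941-25037190 (plus strand) for AT5G62350, chr5:25040290-25040539 (plus strand) for AT5G62360, chr3:5845221-5845470 (minus strand) for AT3G17130, chr5:20925602-20925851 (plus strand) for AT5G51520, chr2:18172639-18172888 (plus strand) for AT2G43880 and chr3:4775259-4775508 (minus strand) for PME3.
AT5G62340: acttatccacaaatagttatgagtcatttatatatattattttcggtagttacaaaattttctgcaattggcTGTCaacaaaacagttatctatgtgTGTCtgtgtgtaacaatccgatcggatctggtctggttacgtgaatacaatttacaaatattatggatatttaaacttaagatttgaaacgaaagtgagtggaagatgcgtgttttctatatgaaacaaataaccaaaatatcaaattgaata
AT5G62350: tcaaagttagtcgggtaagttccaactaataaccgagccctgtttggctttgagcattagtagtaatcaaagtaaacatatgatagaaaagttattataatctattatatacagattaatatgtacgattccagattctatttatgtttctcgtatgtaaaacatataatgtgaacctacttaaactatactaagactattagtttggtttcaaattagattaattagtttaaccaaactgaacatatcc
AT5G62360: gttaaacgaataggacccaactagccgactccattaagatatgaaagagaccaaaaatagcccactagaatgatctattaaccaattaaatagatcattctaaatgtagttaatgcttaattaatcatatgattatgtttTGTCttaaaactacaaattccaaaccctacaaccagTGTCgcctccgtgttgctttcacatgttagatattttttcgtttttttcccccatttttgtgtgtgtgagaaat
AT3G17130: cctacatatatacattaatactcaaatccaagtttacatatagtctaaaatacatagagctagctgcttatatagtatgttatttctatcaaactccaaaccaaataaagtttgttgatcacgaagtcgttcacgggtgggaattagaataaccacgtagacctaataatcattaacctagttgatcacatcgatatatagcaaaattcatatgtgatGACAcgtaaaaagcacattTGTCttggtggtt
AT5G51520: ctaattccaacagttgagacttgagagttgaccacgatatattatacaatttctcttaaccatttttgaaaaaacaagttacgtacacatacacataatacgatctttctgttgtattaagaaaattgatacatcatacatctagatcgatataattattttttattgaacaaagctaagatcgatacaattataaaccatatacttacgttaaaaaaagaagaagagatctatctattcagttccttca
AT2G43880: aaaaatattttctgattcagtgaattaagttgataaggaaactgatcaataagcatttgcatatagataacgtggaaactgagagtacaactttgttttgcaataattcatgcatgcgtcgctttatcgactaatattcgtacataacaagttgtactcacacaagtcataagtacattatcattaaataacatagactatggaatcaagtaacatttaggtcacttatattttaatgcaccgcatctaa
PME3: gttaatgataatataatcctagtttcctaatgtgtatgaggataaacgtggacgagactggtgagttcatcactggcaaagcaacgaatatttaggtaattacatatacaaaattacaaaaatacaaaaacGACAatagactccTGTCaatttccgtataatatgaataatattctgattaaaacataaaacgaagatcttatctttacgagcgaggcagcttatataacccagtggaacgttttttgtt
AT5G62340, AT5G62360, AT3G17130 and PME3 hold 2 matches each, and AT5G62350, AT5G51520 and AT2G43880 none. On both strands, TGTC was present in 71.3% of the windows of all 129 members, expressed or not, and in 75.3% of those of 15068 expressed loci. By class, also over expressed and other members, it was in 82.4% of the inhibitors', 69.8% of the pectinesterases', 66.7% of the polygalacturonases' and 63.2% of the pectate lyases'. The longer form TGTCTC, which contains it, was in 10.9% of members' windows and 10.5% of those of the expressed loci. TGTCGG, which also contains it, was in 2.33% and 4.77%. A match is a run of letters and not a shown binding site.

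Other genes of the pectin pathway, taken from lists chosen by function, had median log2 ratios from -0.37 to 0.08 by list. After adjustment the medians ran from -0.22 to 0.10. Of 27 expressed genes for pectin synthesis and methylation, 24 had negative log2 ratios, but 14 after adjustment. The median was -0.14, but -0.01 after adjustment. In that list, 1 gene was at least 1.5-fold lower and 0 were higher: GALS3, a galactan synthase, with 310 and 172 counts and a log2 ratio of -0.76. GAUT1, the galacturonosyltransferase that extends the pectin backbone, had 1159 and 742 counts and a log2 ratio of -0.58 (-0.37 adjusted), while GALS1 and GALS2 lay at -0.55 and -0.52. The 4 expressed sensors had a median of -0.27 (-0.10 adjusted). They were FER at -0.44, WAK2 at -0.28, THE1 at -0.26 and RLP44 at 0.10, receptors that monitor the wall. Adjusted, these became -0.12, -0.11, -0.01 and -0.10, and RLP44 changed sign. Subtilases, of which some process pectinesterases, gave SBT6.1 at -0.42, SBT1.1 at -0.20 and SBT3.5 at 0.01. With adjustment they lay at -0.11, 0.10 and 0.25, and the sign of their median turned from -0.20 to 0.10. Among 5 expressed regulators and abscission genes, the receptors HAE and HSL2 lay at -0.54 and -0.41, their ligand IDA at 0.40 from 3 and 5 counts, and ERF4 at 0.34. The adjusted values were -0.24 and -0.13 for the receptors, 0.11 for IDA and 0.23 for ERF4. Of 6 pectin acetylesterases, 5 had positive log2 ratios and 1 a negative one, with a median of 0.08 (0.03 adjusted). The negative one, AT5G26670, was at least 1.5-fold lower, at -0.71 (-0.65 adjusted). It had 24 and 10 counts and a count ratio of 0.431 (0.184 to 0.935). The 3 expressed rhamnogalacturonan lyases had a median of -0.37 (-0.22 adjusted). In each of these lists 0 expressed genes were 2-fold apart on the log2(RPKM + 1) scale. By count ratio, AT5G26670 was more than 2-fold lower. So were WAK1 (23 and 10 counts, interval 0.191 to 0.982) and QUA2 (6 and 0 counts, interval up to 0.879), both below the level limit.

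In the authors' deposited table, 2-fold differences at an FDR of 0.05 cover 0.749% of the 24152 nuclear transcript models as higher and 0.749% as lower in the overexpression library. Among the members' 133 models the authors' deposited table has 2 that are higher, AT3G17130 (log2 ratio 1.63, FDR 0.00895) and AT2G43880 (log2 ratio 1.16, FDR 0.000459), and 0 that are lower. The FDR of AT5G51520 in the authors' deposited table is 0.101. That test compares the reads of the 2 libraries and not the genotypes.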

How the data were processed

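RNA was taken from whole seedlings, and cDNA was made with random primers, per the labels' protocols. Reads were placed on TAIR 10, per the submitters' processing notes, while aligner, counter and strandedness were not given in the sources used here. Deposited by the authors were unnormalised counts for each transcript model and RPKM values, with 0 counts written as a small RPKM that was set to 0 here. The authors' deposited table also holds log2 ratios of RPKM and p-values with FDR from a test it does not name.

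Both were summed over the models of a locus. The members were 133 models of 129 loci, and 3 loci had several models. The measure was log2 of (RPKM + 1), overexpression over wild type, which understates differences of low genes. Loci with a mean RPKM of 1 or more were called expressed. Count ratios, scaled to library totals, have 95% exact conditional binomial intervals and are not adjusted for length or GC content. Adjusted ratios have the medians of 50 bins of length and then 50 bins of GC content subtracted. Annotation, promoters and transcripts came from TAIR10.1 (RefSeq); 10 members had the same transcript length there as in the table. Transcripts were compared with BLAST 2.17.0. Other steps used Python 3.11.15, pandas 2.3.3, numpy 2.4.6, scipy 1.17.1 and matplotlib 3.10.9. The log2 ratio, the adjustment and the counting interval were tested on simulated counts with known changes, without and with a length trend. A trend with GC content was not simulated. Genes named are, per class, the 8 of highest level, up to 10 at least 1.5-fold apart and those with described functions, and in pathway lists up to 4 of largest ratio. Others, named for contrast, were chosen after their values were seen. Members and lists were chosen with earlier results of these data known. Alternatives were other pseudocounts, scalings, filters, thresholds and models.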

Additional observations from a re-analysis of the deposited data

How the results depend on the processing

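With 1 library per genotype these results have no replicate check. No paired analysis was possible because wild type and overexpression are 1 library each. The count of members at least 2-fold higher, 3, was 0 with a pseudocount of 5 RPKM, 0 after adjustment for length and GC content, 12 at a 1.5-fold threshold, 1 without the inhibitor classes and 2 with TMM (trimmed mean of M values) scaling, median-centring or a filter at a mean RPKM of 5. AT2G43880, at a log2 ratio of 1.01, lost its 2-fold call at 0.98 with TMM and 0.97 with median-centring. The count at least 2-fold lower, 0, was 3 at 1.5-fold. The sum ratio of pectinesterases, 0.857, was 0.894 without PME3, 0.839 with TMM scaling and 0.926 adjusted. That of inhibitors, 1.20, was 1.04 adjusted, an alternative for the sums chosen after seeing the data, and their median of 0.28 was 0.077 adjusted. Of the 61 named members, 10 moved beyond their counting interval with adjustment and 1 with a pseudocount of 5, and 0 with TMM scaling, median-centring, a pseudocount of 0.1 or the best-counted model. Median-centring shifted each log2 ratio by -0.03, and TMM by at most that, and by less at low levels. Depth limits low members: the interval of AT3G17130, at 10 and 30 counts, runs from 1.48 to 7.12.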
